A study of Mus musculus with 3 samples.

Results

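The proteasome subunit genes were taken as all genes whose symbol begins with Psma, Psmb, Psmc, Psmd, Psme, Psmf or Psmg followed by a number and that have at least 1 protein-coding transcript. The rule uses names only and no measured value. It found 50 genes of 55536 annotated genes, 22028 of them protein coding, after 4 matching pseudogenes (Psmb5-ps, Psmb6-ps, Psmb6-ps2 and Psmb7-ps2, each at 0 to 2 counts in every library) were set aside. One of the 50, Psmc3ip, carries a name of this form but encodes a meiotic recombination factor and is no proteasome subunit. Psme2b, a copy of the activator gene Psme2 with a single transcript, is also described apart.

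The RNA came from the chromatin fraction of bone marrow-derived macrophages (BMDM) of C57BL/6J mice, primary cells that had been treated with Lipid A at 100 ng/ml for 20 min. Lipid A anchors lipopolysaccharide in the outer membrane of bacteria and is sensed by Toll-like receptor 4. The libraries were made from ribosomal RNA-depleted total RNA. There were 3 libraries, all of this 1 group, made from 1000, 250 and 500 ng of RNA for replicates 1, 2 and 3. The replicates are separate biosamples under a single donor record, and no label says if more than 1 mouse was used. The group has no unstimulated counterpart: the values below are levels, not responses to Lipid A.

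The 26S proteasome degrades proteins that carry ubiquitin chains. Its barrel-shaped 20S core is built of alpha-subunit rings around beta-subunit rings, and 3 kinds of beta subunit (Psmb5, Psmb6 and Psmb7) hold the peptide-cutting sites. A 19S cap binds the ubiquitin chain, removes it and threads the protein into the core with a ring of ATPases. In immune cells and after interferon, Psmb8, Psmb9 and Psmb10 can replace Psmb5, Psmb6 and Psmb7 during assembly, giving the immunoproteasome, which is known for making peptides for MHC class I. Other caps exist, among them the activators PA28 (Psme1 with Psme2, or Psme3 alone) and PA200 (Psme4), and the Psmg and some Psmd proteins are chaperones that leave the finished particle.

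Gene-level depth was 16317439, 16245280 and 12439931 expected counts in replicates 1, 2 and 3. Protein-coding genes held 15.8%, 18.0% and 24.7% of all TPM (a transcript level scaled by length and by library), so a TPM of a coding gene is a share of a pool that differed between the libraries. TPM was highest in replicate 3 for 46 of the 50 genes. When TPM was rescaled over coding genes alone, replicate 3 was highest for 19 and replicate 2 for 22. All 9 macrophage markers stood at 1 TPM or more in every library, with summed levels of 601 to 1046 TPM. In the gene tables, T-cell (3 genes), neutrophil (5), fibroblast (3), thymic epithelial (3) and spermatocyte (3) markers had no gene at that level in every library. Their summed levels were highest at 0, 0.77, 0.67, 1.04 and 1.13 TPM. Cd3d, Cd3e, Cd3g, Ly6g, Foxn1 and Sycp1 were listed at 0 TPM in all 3 gene tables. The second set of transcript tables lists Cd3d at 7.94 to 18.4 TPM, the fibroblast marker Col1a1 at 1.27 to 2.16 TPM and Psmb11 at 2.09 to 2.83 TPM. Psmb11 is both a thymic epithelial marker and 1 of the 50 genes. In bulk RNA, fewer cells of a type and less RNA per cell cannot be told apart.

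Sequences are shown first for a pair of members that are near copies of each other. Psme2 (chr14:55587441-55591113, minus strand) and Psme2b (chr11:48945354-48946190, minus strand) have coding sequences of 717 bases that differ at 5 positions and share an identical run of 311 bases, an identity of 99.3%. The stretch of 60 bases with the most differences, coding bases 484 to 543, is given 5′ to 3′ from the GENCODE M21 transcripts (mm10), with the 3 differing bases in capitals.
Psme2: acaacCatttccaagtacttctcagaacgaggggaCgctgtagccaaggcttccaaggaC
Psme2b: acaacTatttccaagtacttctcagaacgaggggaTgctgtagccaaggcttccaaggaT
A read from an identical run fits both genes, while Psme2 also has exon bases outside the 794 bases that match Psme2b. In replicates 1, 2 and 3 the genes shared 916, 671 and 534 counts, whole numbers, of which the deposited tables gave Psme2b 43.2%, 54.7% and 52.3%, with a posterior SD of the count of 0.76, 1.82 and 1.20.

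A second set of sequences shows the letters just before the start of the constitutive catalytic genes at the low and the high end, of an immunoproteasome gene and of Psmd8, the lid gene with the highest mean TPM. They come from the RefSeq promoter table (GRCm38.p6), which covers 250 bases before to 50 bases after a start and held a window for 42 of the 50 members. Each is given 5′ to 3′ on the gene's strand from 150 bases before the start to the first annotated exon base, with capitals for matches to TGACNNNGC (an antioxidant response element core, the kind of site bound by Nfe2l1, the main activator of proteasome genes, and by Nfe2l2) or GGANNTTCC (a kB-like motif).
Psmb5, chr14:54618023-54618145, minus strand: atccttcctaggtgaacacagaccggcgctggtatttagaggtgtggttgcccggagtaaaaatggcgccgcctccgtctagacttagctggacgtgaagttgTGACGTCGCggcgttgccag
Psmb6, chr11:70525207-70525356, plus strand: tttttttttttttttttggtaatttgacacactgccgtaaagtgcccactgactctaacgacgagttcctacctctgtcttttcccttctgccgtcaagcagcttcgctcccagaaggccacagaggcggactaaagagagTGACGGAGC
Psmb10, chr8:105938445-105938542, minus strand: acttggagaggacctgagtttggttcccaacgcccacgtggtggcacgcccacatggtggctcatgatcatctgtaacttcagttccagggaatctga
Psmd8, chr7:29180702-29180823, minus strand: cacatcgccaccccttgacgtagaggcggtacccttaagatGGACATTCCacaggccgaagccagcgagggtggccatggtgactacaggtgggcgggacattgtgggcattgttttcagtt
Psmb5 and Psmb6, at the bottom and the top of the constitutive catalytic genes by level, both hold the antioxidant core. It starts 47 bases before the start of Psmb5 and 9 bases before that of Psmb6. Over all windows, searched on both strands, the antioxidant core was found in 6 of 42 members (Psmb5, Psmb6, Psmc6, Psmd9, Psmd12 and Psme4), 14.3% against 13.99% of the 27025 genes with a window. An interferon-response motif, GAAANNGAA, was found in 7 members (16.7% against 9.76%), and the kB-like motif in 6 (14.3% against 4.86%: Psma1, Psmc2, Psmc3ip, Psmd8, Psme3 and Psme4). CCAAT was found in 15 members (35.7% against 41.1%). None of the first 3 motifs was in the windows of Psmb8, Psmb9 and Psmb10, which says only that these letters are not there. The windows of Psmb8 (chr17:34197945-34198244) and Psmb9 (chr17:34187281-34187580) lie wholly inside the annotated gene spans. The bases before the outermost annotated starts of these genes were therefore not searched.

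Most proteasome genes were present in chromatin RNA. Of the 50 genes, 43 reached 1 TPM in every library, beside 40.6% of all protein-coding genes. With isoforms annotated as protein coding alone, 33 reached it, beside 34.8%. The median over the 50 genes was 5.88, 7.36 and 10.5 TPM in replicates 1, 2 and 3, beside a median of 0.41 TPM (mean of the 3 library medians) over all coding genes. The 7 genes short of that line were Psmb5, the tissue-restricted Psma8 and Psmb11, the chaperones Psmg3, Psmg4 and Psmd10, and Psmc3ip. The rank order of the members was much alike in the 3 libraries, with Spearman's rho of 0.974 to 0.985 between pairs of libraries over the 50 genes, which share a depth and a set of transcript lengths.

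**Figure D1:**
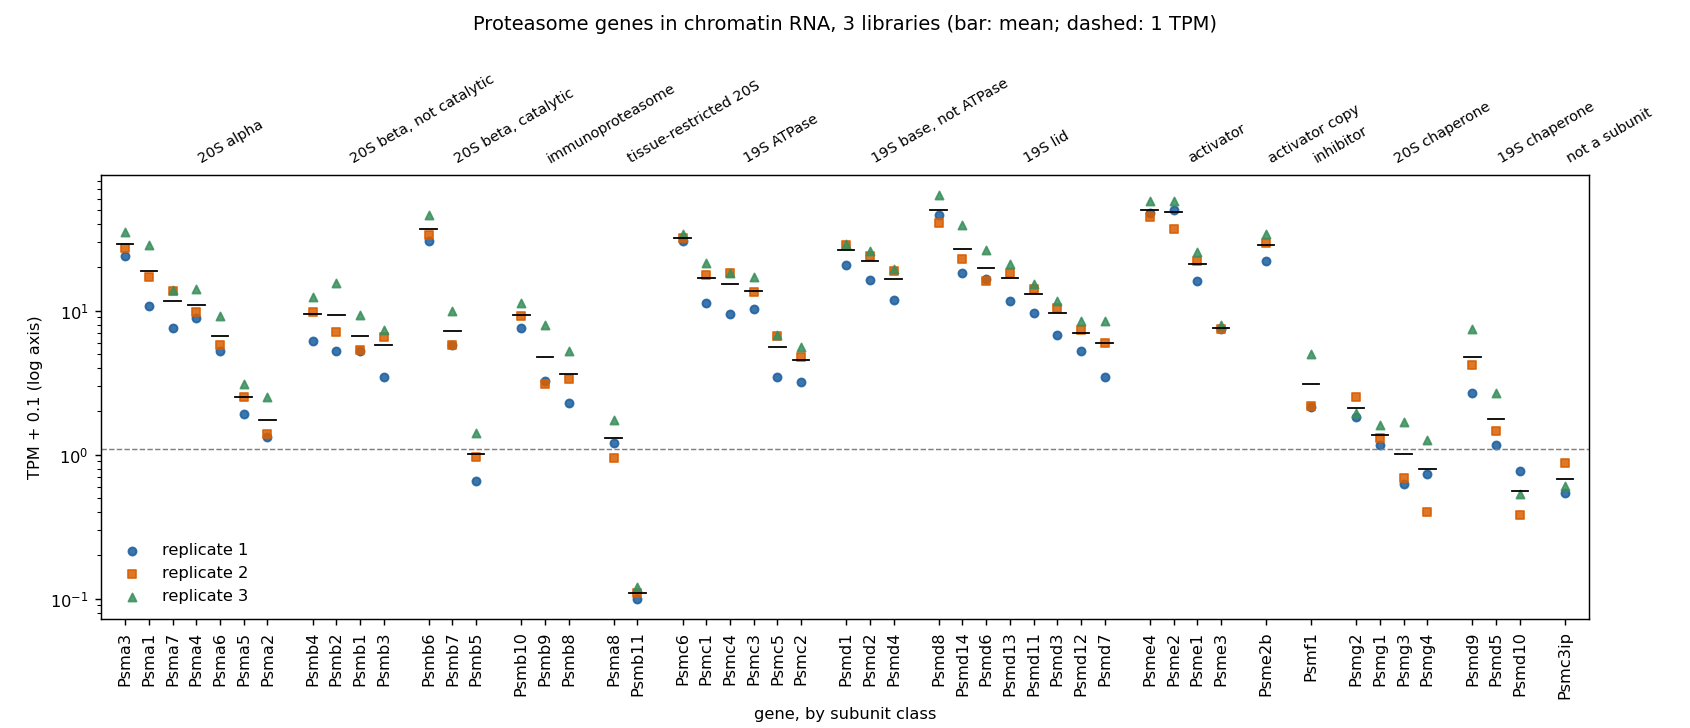
TPM plus 0.1 on a log axis for each of the 50 genes in replicate 1 (circles), 2 (squares) and 3 (triangles), grouped by subunit class; bars are means of the 3 libraries and the dashed line marks 1 TPM. Psmd8, Psme4 and Psme2 stand at the top with means of 50.05, 49.9 and 48.2 TPM, and Psmb11 lies at the bottom.

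The alpha subunits of the 20S core, which form the gate of the barrel, were all detected (7 of 7). Psma3 was the highest of them, at 23.8, 27.3 and 35.4 TPM in replicates 1, 2 and 3. At the other end stood Psma2, with 1.22, 1.29 and 2.41 TPM. Their values did not overlap, and the other alpha genes lay between them at means of 2.40 TPM (Psma5) to 18.75 TPM (Psma1). The level of Psma2 differed with the way its reads were assigned. In the gene tables all of its 92, 73 and 89 counts went to a transcript of 2911 bases and none to the shorter one of 1353 bases. The second set of transcript tables gave the shorter one 13.7, 17.1 and 23.8 TPM, and a gene total of 15.4, 18.8 and 26.8 TPM, on average 12.4 times the gene tables' value.

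Among the 4 beta subunits without a cutting site of their own, Psmb4 was highest by mean, at 6.11, 9.64 and 12.3 TPM, and Psmb3 lowest, at 3.38, 6.45 and 7.19 TPM. The ranges of these genes overlapped between libraries. The 3 constitutive catalytic genes did not lie together. Psmb6, the caspase-like subunit (chr11:70525367-70527858, plus strand), stood at 30.4, 33.4 and 46.3 TPM. Psmb7, the trypsin-like subunit (chr2:38588036-38644087, minus strand), had 5.64, 5.72 and 9.89 TPM. Psmb5, the chymotrypsin-like subunit (chr14:54614119-54618022, minus strand), had 0.56, 0.87 and 1.32 TPM from 11, 12 and 12 counts. In all 3 libraries the order was Psmb6, Psmb7, Psmb5, with no overlap, a 40.0-fold range between the means of Psmb6 and Psmb5. The range was 15.6-fold with counts per kb of merged exons and 6.79-fold with coding isoforms only. With coding isoforms Psmb7 had 1.07, 0.81 and 1.29 TPM and overlapped Psmb5. The finished constitutive core contains these 3 proteins in equal number.

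The immunoproteasome genes were all detected. Psmb10 (chr8:105935735-105938444, minus strand), which takes the place of Psmb7, stood at 7.43, 9.09 and 11.1 TPM. Psmb9 (chr17:34181987-34187764, minus strand), which takes the place of Psmb6, had 3.15, 3.01 and 7.85 TPM. Psmb8 (chr17:34197721-34201454, plus strand), which takes the place of Psmb5, had 2.17, 3.23 and 5.19 TPM. Psmb9 and Psmb8 overlapped and cannot be ordered from these libraries, and Psmb10 exceeded both in each library. Psmb10 also did so with the second tables and with counts per kb of merged exons. With coding isoforms only, Psmb10 was below Psmb9 in replicate 3 (1.35 against 1.78 TPM). Psmb8 and Psmb9 sit in the MHC class II region beside the peptide transporter genes. Tap1 begins within Psmb9, with 212 shared exon bases on opposite strands, and ends 495 bases before Psmb8, while Tap2 starts 2072 bases after it. Tap1 carried 683 to 828 counts and Psmb9 91 to 141. The sources used here do not say whether counting used the strand, so reads from the shared bases may belong to either gene.

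Set against the subunits they replace, the 3 immunoproteasome genes gave different answers. Differences are of log2(TPM + 0.1), which understates the difference of low genes. Psmb8 exceeded Psmb5 by 1.82 ± 0.07 (SD, n = 3 libraries; 1.78, 1.78 and 1.90 in replicates 1, 2 and 3), 3.53-fold. Psmb9 was below Psmb6, with differences of -3.23, -3.43 and -2.54 and a mean of -3.07 ± 0.46 (SD, n = 3), 8.38-fold lower. Psmb10 and Psmb7 differed by 0.39, 0.66 and 0.17, a mean of 0.41 ± 0.24 (SD, n = 3), so all 3 libraries lay on the side of Psmb10. Each difference had 1 sign in all libraries, and with 3 libraries the exact sign-flip permutation test cannot go below p = 0.25. The sign of the first and the last depended on how RNA was measured. With isoforms annotated as protein coding alone, Psmb8 minus Psmb5 was -0.83 on average, positive in replicate 2 only, since 0.46, 1.11 and 0.14 TPM of Psmb8 lay in such isoforms. With expected counts per kb of merged exons, Psmb10 minus Psmb7 was -0.66 and Psmb8 minus Psmb5 was 0.72. Psmb9 remained below Psmb6 under every one of these measures.

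**Figure D2:**
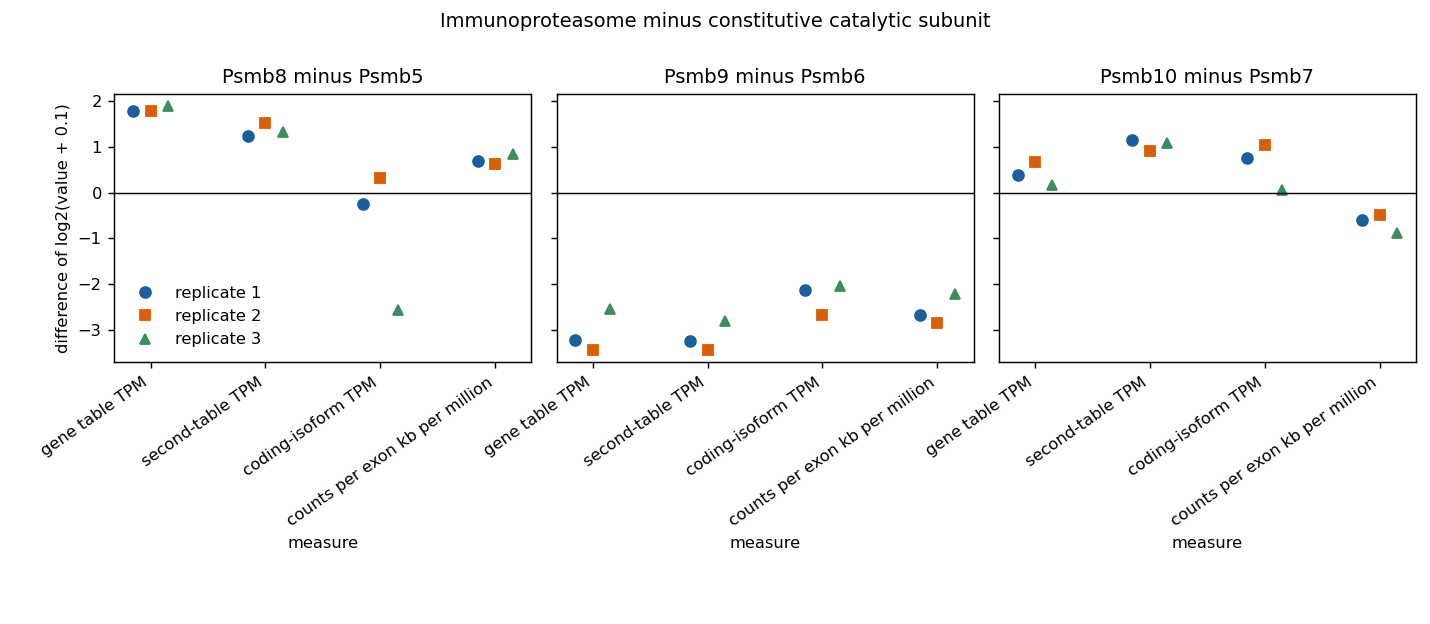
Difference of log2(value + 0.1) between each immunoproteasome gene and the constitutive gene it replaces, by library (circles, squares and triangles for replicates 1, 2 and 3), for 4 measures of level. Points above 0 mean more of the immunoproteasome gene: Psmb9 minus Psmb6 is below 0 throughout, Psmb8 minus Psmb5 turns below 0 on average with coding isoforms only, and Psmb10 minus Psmb7 turns below 0 with counts per exon kb.

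As a class, the 3 immunoproteasome genes had a median of 3.15, 3.23 and 7.85 TPM, and the 3 constitutive catalytic genes 5.64, 5.72 and 9.89 TPM. The immunoproteasome median was lower in each library, by 0.65 ± 0.28 on the log2 scale (SD, n = 3), but it was not lower with coding isoforms only (0.046). The tissue-restricted core genes were low. Psma8, the alpha subunit of the testis, had 1.10, 0.85 and 1.65 TPM from 21, 15 and 26 counts. Psmb11, the catalytic subunit of thymic cortical epithelium, had 0, 1 and 1 counts, below the limit of 3 counts that a count of 0 allows, which covers counting error only. The second tables listed Psmb11 at 2.32, 2.09 and 2.83 TPM. Its transcripts share stretches of at least 100 bases and 90% identity with 1345 other genes, more than any other member.

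The 19S genes were all detected (17 of 17), with a median of 11.3, 17.8 and 19.5 TPM in replicates 1, 2 and 3 against 5.41, 6.71 and 11.1 TPM for the 14 constitutive 20S genes. The 20S median was lower in every library, with differences of -1.05, -1.39 and -0.81 on the log2 scale and a mean of -1.08 ± 0.29 (SD, n = 3), 2.12-fold lower. Within the ATPase ring, in TPM of the gene tables, Psmc6 was highest at 30.3, 31.95 and 34.2 TPM and Psmc2 lowest at 3.10, 4.67 and 5.54 TPM, without overlap. Both ends depended on the measure. With coding isoforms only, Psmc1 (7.74, 13.38 and 14.52 TPM) exceeded Psmc6 (5.06, 4.66 and 7.07 TPM). By mean it also did so with counts per kb of merged exons (11.82 against 8.62). Psmc5 had a lower mean than Psmc2 with coding isoforms (0.53 against 3.07 TPM) and with the second tables (7.21 against 12.13 TPM). Of the base subunits that are no ATPases, the scaffold Psmd1 had 20.7, 28.6 and 29.2 TPM and the ubiquitin receptor Psmd4 11.8, 18.6 and 19.5 TPM, so in each library Psmd1 was the higher. In the lid, Psmd8 was highest at 46.1, 40.4 and 63.7 TPM, and Psmd7 lowest, a partner of the deubiquitinase Psmd14, at 3.37, 5.88 and 8.37 TPM. The mean of Psmd8, 50.05 TPM, was close to that of the activator Psme4, 49.9 TPM, which exceeded Psmd8 in replicates 1 and 2 and in the means of the other 3 measures. Psmd14 itself, which cuts off the ubiquitin chain, had a mean of 26.7 ± 11.2 TPM (SD, n = 3).

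Smaller contrasts within the core and the cap depended on the measure. Alpha genes had a higher median than beta genes in each library, by 0.53 ± 0.05 on the log2 scale (SD, n = 3), and by 0.13 with counts per kb of merged exons. ATPases had a lower median than the other 19S genes by 0.25 ± 0.02 (SD, n = 3), a difference that turned to 0.040 in the other direction with counts per kb of merged exons. In TPM of the gene tables, the SD of log2(mean TPM + 0.1) over genes was 1.45 for the 14 constitutive 20S genes and 0.95 for the 17 19S genes, and the fold between the highest and the lowest mean was 40.0 and 11.3. With coding isoforms only, the SDs were 1.12 and 1.09 and the order of the folds turned, to 10.6 and 35.6. Genes of a class are not replicates, so these spreads are a description.

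Activator genes had the highest median of the classes in TPM of the gene tables. Their median was 31.7, 29.5 and 41.6 TPM in replicates 1, 2 and 3 and exceeded that of the constitutive 20S genes by 2.06 ± 0.27 on the log2 scale (SD, n = 3; 2.33, 2.07 and 1.78), 4.18-fold. Psme4, the PA200 cap (chr11:30771726-30880361, plus strand), had 47.4, 44.7 and 57.8 TPM and the largest counts of any member, 3818, 3207 and 2344. Psme2, the beta subunit of PA28, had 49.7, 36.9 and 58.0 TPM, and its copy Psme2b 22.0, 29.3 and 34.05 TPM. Reads of the identical runs were divided between Psme2 and Psme2b by estimate. Psme2b also shares 41 exon bases on the same strand with 9930111J21Rik1, which carried 2185 to 2606 counts. Psme1, the alpha subunit of PA28, was lower than Psme2 in each library at 16.0, 22.1 and 25.3 TPM. In TPM of the gene tables, Psme3, the nuclear PA28 gamma, was the lowest activator at 7.32, 7.42 and 7.90 TPM. Its spread between libraries was the smallest of the 4 there and with the second tables. By mean, Psme1 was lower than Psme3 with coding isoforms (3.36 against 4.76 TPM) and with the second tables (18.4 against 18.7 TPM). The SD of Psme3 exceeded that of Psme1 with coding isoforms (2.11 against 1.42 TPM) and with counts per kb of merged exons (0.83 against 0.27). Activators exceeded the 19S genes by 0.98 ± 0.30 (SD, n = 3), but with coding isoforms only this difference was -0.03 ± 0.16, with both signs among the libraries. Without Psme2 the activator median still exceeded the 20S median, by 1.48. The inhibitor Psmf1 (PI31) had 2.04, 2.08 and 4.94 TPM, below every activator in every library.

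**Figure D3:**
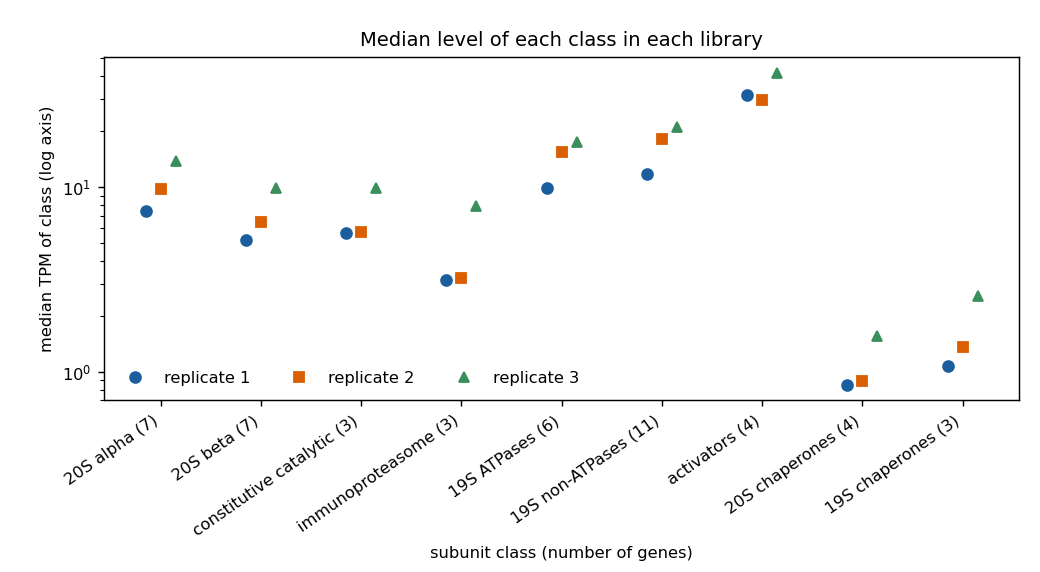
Median TPM on a log axis of 9 subunit classes, tissue-restricted genes left out, in replicates 1 (circles), 2 (squares) and 3 (triangles), with the number of genes of the class in brackets. Of the classes drawn, the activators stand highest in each library and the chaperones of the 20S core and of the 19S cap lowest.

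Assembly chaperones were low: 4 of 7 reached 1 TPM in every library, and their median was 1.07, 1.20 and 1.60 TPM. In TPM of the gene tables, the tissue-restricted Psma8 exceeded the chaperones Psmg3, Psmg4 and Psmd10 in each library. With coding isoforms only, Psma8 (0.17, 0.16 and 0.32 TPM) was below Psmg4 and Psmd10 in each library. With the second tables, Psmg4 (2.07, 1.37 and 2.85 TPM) exceeded Psma8 (1.79, 1.08 and 2.36 TPM), while Psmg3 and Psmd10 stayed below Psma8. The median of the chaperones lay below that of the 31 constitutive 20S and 19S genes. The differences were -2.93, -3.37 and -3.17, a mean of -3.16 ± 0.22 on the log2 scale (SD, n = 3), 8.94-fold lower. Of the 20S chaperones, Psmg2 had 1.73, 2.41 and 1.86 TPM and Psmg4 0.63, 0.30 and 1.16 TPM from 5, 2 and 5 counts. Of the 19S chaperones, Psmd9 (p27) had 2.58, 4.10 and 7.32 TPM and Psmd10 (gankyrin) 0.67, 0.28 and 0.43 TPM. Psmd9 was above Psmd10 in each library, while at 2 to 5 counts Psmg4 cannot be ordered against its neighbours. Psmc3ip, which is no subunit, had 0.44, 0.78 and 0.51 TPM, and 385 of its exon bases overlap Mlx on the other strand.

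Much of the RNA of these genes was assigned to isoforms that encode no protein. GENCODE marks some transcripts of a coding gene as retained intron (a model that keeps an intron) or processed transcript (a model without an open reading frame), and 41 of the 50 genes have at least 1. Over the 38 of them that reached 1 TPM in every library, the median share of TPM in such isoforms was 59.2%, 61.5% and 62.9% in replicates 1, 2 and 3, a mean of 61.2% ± 1.87 (SD, n = 3). Over 7454 coding genes chosen in the same way it was 48.1% ± 1.58 (SD, n = 3). Reads from unspliced precursor RNA and from such isoforms cannot be told apart in these tables.

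Members differed widely in this share. In replicates 1, 2 and 3 it was 87.9%, 84.8% and 84.3% for Psmb3, 81.0%, 85.8% and 86.9% for Psmb7, and 85.7%, 79.9% and 83.5% for Psmb6. At the other end, Psmd7 had 22.6%, 26.2% and 25.2%, and Psmd1 25.3%, 22.7% and 26.6%. These groups of values did not overlap. Among the immunoproteasome genes the mean share was 81.0% ± 6.69 for Psmb10, 80.6% ± 15.9 for Psmb8 and 68.0% ± 6.87 for Psmb9 (SD, n = 3). Both PA28 genes had high shares, 80.3% ± 1.48 for Psme1 and 81.8% ± 6.16 for Psme2 (SD, n = 3), while Psme4 had 47.5% ± 4.72. The share of Psme3 differed between libraries, at 61.6%, 39.8% and 11.3% in replicates 1, 2 and 3. The ATPase gene Psmc5 has no such isoform, but 90.6% of its TPM lay in an isoform marked for nonsense-mediated decay. Psma2, Psmb5, Psmb11, Psmd10, Psmd12, Psme2b and Psmg4 have protein-coding isoforms only, so their levels and those of Psmb6 or Psmb8 are made of different kinds of transcript.

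**Figure D4:**
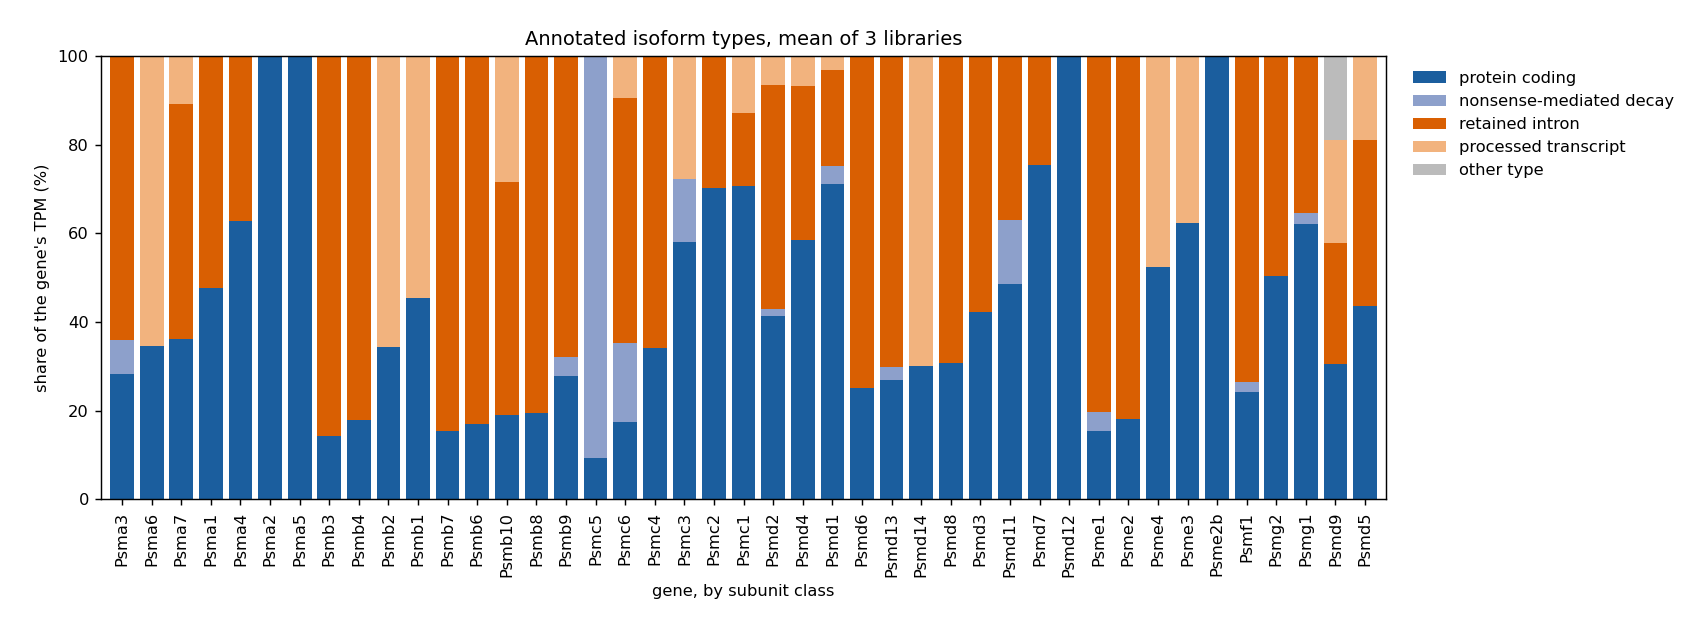
Share of each gene's TPM (percent, mean of 3 libraries) in protein-coding isoforms and in isoforms annotated as nonsense-mediated decay, retained intron, processed transcript or another type, for the 43 genes at 1 TPM or more in every library. Psmb3, Psmb4, Psmb6, Psmb7 and both PA28 genes are mostly orange, and Psmc5 is mostly decay isoform.

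Both sets of tables ranked the members alike, with Spearman's rho of 0.928 over the 50 genes, and differed in level. The second tables gave a median of 1.60 times the gene tables' TPM over the 44 members with a mean of 1 TPM, beside 1.55 times over all such coding genes. The ratio was 2 or more for 9 of these 44 members, beside 26.6% of coding genes, and 0.5 or less for 0 members (0.123%). It ranged from 0.872 for Psme1 to 12.4 for Psma2. The number of annotated transcripts and the TPM of a member had a rho of 0.593, and gene span and TPM one of -0.02, both across genes, which are not independent.

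**Figure D5:**
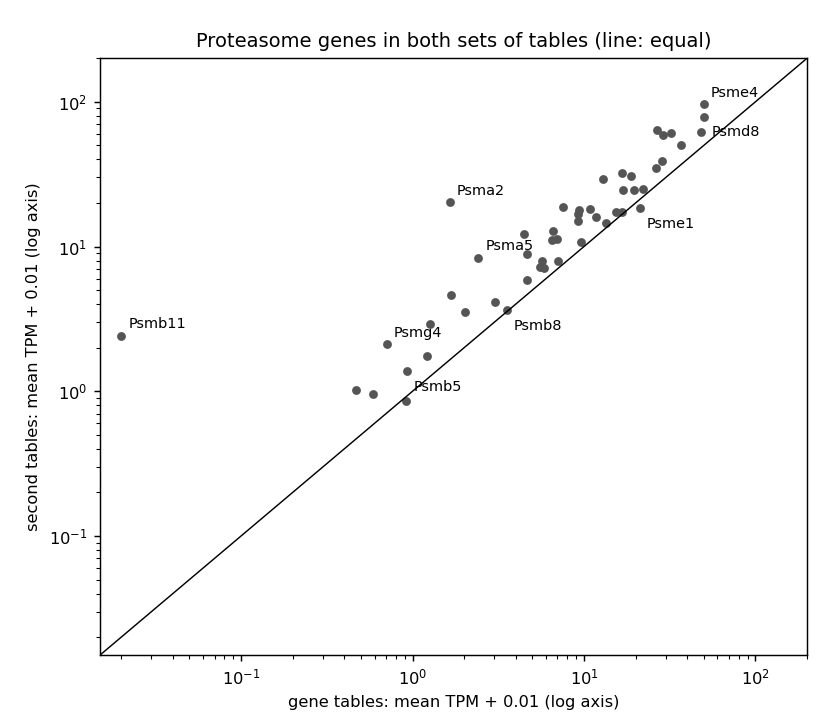
Mean TPM plus 0.01 of each of the 50 genes in the gene tables (x axis) and the second transcript tables (y axis), both on log axes, with a line where they are equal. Most points lie somewhat above the line, Psma2 and Psmb11 far above it.

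Sequence shared with other genes adds to the uncertainty of single members. It includes copies elsewhere in the genome and genes that overlap a member at the same place. Examples of such overlap are Nek6 for Psmb7, Tap1 for Psmb9 and Mlx for Psmc3ip, each with 100% identity. In 26 of the 50 genes a transcript shared at least 100 bases at 90% identity or more with another gene, such as the pseudogene Gm8394 for Psma5 (952 bases, 98.6%) or Psmb5-ps for Psmb5 (810 bases, 92.0%, listed at 0 counts). The posterior SD of the deposited count, a measure of how uncertain read assignment was, exceeded 1% of the count in at least 1 library for 5 of the 50, with Psmc3ip (8.13%) and Psmd9 (6.18%) at the top. For Psme2 it was at most 0.598%.

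The amount of starting RNA was the only labelled difference between the libraries. Each amount was used for a single library, so amount and biosample cannot be told apart. In a fit of expression on log2 starting RNA by edgeR's quasi-likelihood test over 15065 genes, with 1 residual degree of freedom, 83 genes rose with the amount (0.551%) and 5 fell (0.0332%) at an adjusted p below 0.05. Of the 47 members tested (all but Psmb11, Psmd10 and Psmg4), 0 were called, and 0 had an unadjusted p below 0.05, beside 6.75% of all genes. DESeq2's Wald test also called 0 members, beside 0.564% of all genes. Slopes of members ran from -0.43 (Psmb3, edgeR adjusted p = 0.778) to 0.26 (Psme2, edgeR adjusted p = 0.935) per doubling, with a median of -0.08 beside 0.0034 over all genes. With so few libraries a slope of moderate size could go undetected, so the fit does not show that the members are indifferent to the amount.

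The estimated variation between the libraries had a like median for members and for coding genes in general. With 3 libraries, edgeR draws each gene's value toward that of genes of like abundance. The closeness of the medians is therefore partly built in and says little about the members. The tagwise biological coefficient of variation, the relative spread of a gene's abundance beyond counting error, had a median of 20.0% over the 47 members, from 16.6% for Psmb7 to 33.7% for Psmg3, beside 20.25% over 11372 coding genes. The highest values belonged to members with few counts, Psmg3 (15, 22 and 35 counts) and Psmc3ip (12.1, 14.2 and 6 counts). Elsewhere the value did not simply follow the counts. Psmb3 (89, 135 and 92 counts) had 24.9%, and Psmb5 (11, 12 and 12 counts) 22.0%.

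Genes that work with the proteasome were mostly detected as well. Of 16 partners, 15 reached 1 TPM in all 3 libraries. The median level of the list was 10.97 ± 3.91 TPM (SD, n = 3), and its members ranged from Ubqln2, a shuttle for ubiquitinated proteins (0.473 ± 0.234 TPM), to Zfand5, a proteasome-binding stimulator of degradation (86.6 ± 13.6 TPM). The 20S maturation factor Pomp had 6.12, 13.3 and 14.1 TPM. The 19S ubiquitin receptor Adrm1 had 9.69, 16.6 and 21.8 TPM. Sem1, the small lid subunit, had 6.82, 8.15 and 14.5 TPM, so these subunits named outside the Psm series lay within the range of the 19S genes.

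Regulators of proteasome genes were all detected (9 of 9). Nfe2l1 had 16.3, 18.9 and 23.55 TPM. Nfe2l2 had 189, 86.1 and 228 TPM, and was lowest in replicate 2. Irf1, an interferon-responsive activator of immunoproteasome genes, was the highest of this list at 618, 220 and 454 TPM, again lowest in replicate 2, and Keap1, which holds Nfe2l2 in check, the lowest at 4.32, 5.55 and 8.50 TPM. In TPM, all 3 immunoproteasome genes were highest in replicate 3, as were 46 of the 50 members. With TPM rescaled over coding genes, 19 of the 50 were highest there. By counts per kb of merged exons, Psmb10 was highest in replicate 1 (4.31, 3.65 and 4.10 in replicates 1, 2 and 3).

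Of 11 genes for loading peptides on MHC class I, 10 reached 1 TPM in every library. H2-D1, a class I heavy chain, was the highest at 472, 375 and 454 TPM, and Tapbpl, a peptide editor, the lowest at 0.92, 0.98 and 1.68 TPM. The neighbours of the immunoproteasome genes, Tap1 and Tap2, had 11.1, 12.9 and 19.02 TPM and 5.19, 8.56 and 9.33 TPM, so Tap1 exceeded Psmb8 and Psmb9 in each library. All 9 ubiquitin and segregase genes were detected, and the lowest was Uba6, an alternative ubiquitin-activating enzyme (6.16 ± 2.32 TPM, SD, n = 3).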

How the data were processed

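Total RNA-seq libraries of chromatin RNA were compared within 1 group. Per the labels, the assembly was mm10. The sources used here do not name the aligner, quantifier, strand setting or versions. The authors deposited, per library, gene and transcript tables with expected counts, TPM and posterior SDs, and a second set of transcript tables with estimated counts and TPM, summed here per gene. Table identifiers carry GENCODE M21, the annotation used for positions and isoform types. The 26345 rows that name no gene (bare numbers and spike-ins; 1.08%, 0.299% and 0.332% of counts in replicates 1, 2 and 3) stayed out of tests. Levels are log2(TPM + 0.1), and detection means 1 TPM in every library. Expected counts were rounded for edgeR 4.0.16 (TMM, quasi-likelihood) and DESeq2 1.42.0, after a check on simulated data. Copies and other shared sequence were found with blastn 2.17.0. The p-values measure only the spread between these samples. Members, classes and lists were chosen with earlier results of these data known. Named genes were the catalytic, activator, inhibitor and tissue-restricted members, the highest and lowest by mean TPM of every other class and related list, and Nfe2l1, Nfe2l2, Pomp, Adrm1, Sem1, Tap1 and Tap2. Other members were named after their values were seen. The highest gene of the ubiquitin list and 1 marker list are not reported here.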

Additional observations from a re-analysis of the deposited data

How the results depend on the processing

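Of 184 recomputed values, 136 were labelled unchanged, 43 moved and 5 changed sign. Levels and differences were unchanged if within the SD of the main value. Numbers of detected members have no such spread and were judged by a fixed fold. Activators minus 19S, given below, is not among the 184. Measured as log2(TPM + 0.1), medians were 2.90 (20S), 3.99 (19S), 4.96 (activators), 2.14 (immunoproteasome) and 0.46 (chaperones). Rescaling TPM over coding genes gave 5.27, 6.36, 7.34, 4.50 and 2.75, since it divides by a smaller pool. The second transcript tables gave 3.84 (20S), 4.49 (19S) and 1.51 (chaperones), the mean over members gave 4.63 (activators), and the chaperones had 1.19 with a pseudocount of 1 and 0.75 with the posterior mean TPM.

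Differences of classes moved as follows, and the cause was not tested. With the second tables they were -0.65 (20S minus 19S), 0.72 (alpha minus beta), -0.62 (ATPases minus other 19S), 1.26 (activators minus 20S) and -2.65 (chaperones minus 20S and 19S). The mean over members gave 0.19 (alpha minus beta), -0.46 (ATPases), 1.78 (activators) and -0.28 (immunoproteasome minus constitutive catalytic). The posterior mean TPM gave 0.70 (alpha minus beta) and -2.93 (chaperones), and a pseudocount of 1 gave -2.53 (chaperones). Measures added after seeing the data were isoforms annotated as coding, with 1.35 (alpha minus beta), -0.38 (ATPases), 1.22 (activators), 0.046 (immunoproteasome, reversed) and -2.53 (chaperones), and counts per kb of merged exons, with 0.13, 0.040 (reversed), 1.55, -1.49 and -2.67. Leaving out Psme2, also added, gave 1.48 (activators).

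Psmb8 minus Psmb5 was 1.21 with a pseudocount of 1, 1.93 with 0.01, 1.36 with the second tables, 0.72 with counts per exon kb and -0.83, reversed, with coding isoforms. Psmb9 minus Psmb6 was -2.29 with coding isoforms and -2.58 with counts per exon kb. Psmb10 minus Psmb7 was 1.05 with the second tables and -0.66, reversed, with counts per exon kb.

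Leaving out 1 library at a time kept each class and pair difference on its side. The detected count was then 43 to 44, the noncoding share 60.4% to 62.2% (63.7% with the second tables) and the coefficient of variation 19.3% to 22.5%. The median slope of the members ran from -0.27 without replicate 1 to 0.032, reversed, without replicate 2. Members called on starting RNA numbered 0 under each alternative with a test (leaving out a library leaves none), while calls over all genes were 88, 284 without a filter and 158 with the second tables' counts. The detected count was 46 at 0.5 TPM, 38 at 2 TPM, 46 with the second tables, 49 with rescaled TPM and 33 with coding isoforms. Activators minus 19S, added after seeing the data, was 0.98 in TPM, 0.61 with the second tables, 0.56 with counts per exon kb and -0.03, reversed, with coding isoforms. No paired analysis was possible because all libraries form a single group. Psmb5, Psmb11, Psmg4 and Psmd10 rest on 0 to 23 counts a library, so depth limits their order.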
